A study of Drosophila melanogaster with 6 samples.

Results

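The tetraspanin genes of *Drosophila melanogaster* were followed in sorted cells of the wing imaginal disc, the larval epithelium that forms the adult wing and dorsal thorax. Members were all probe sets whose single gene symbol in the platform annotation was Tsp followed by a cytological map position, together with *lbm*. This gave 32 of the 10844 genes named on the array, with 1 of its 14010 probe sets each. Of these, 16 belong to the cluster at 42E on chromosome arm 2R and 16 lie elsewhere in the genome. The rule itself reads gene symbols and no signal, though the family was picked with earlier results of these data known.

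Tetraspanins are small proteins that cross the membrane several times and carry a large extracellular loop stabilised by cysteine bridges. They gather partner proteins such as integrins, immunoglobulin-domain receptors and membrane metalloproteases into membrane microdomains, and steer their passage through endosomes. A subgroup binds the metalloprotease Kuzbanian, which makes the first cut in the activated Notch receptor, and promotes its delivery to the cell surface. In flies this subgroup consists of *Tsp3A*, *Tsp26A* and *Tsp86D*. Notch signalling singles out sensory organ precursors, the founder cells of bristles, from proneural clusters of the disc epithelium.

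All 6 samples came from late third-instar larvae carrying the same E(spl)m4-GFP reporter, which is active in proneural clusters. The GFP-positive group (3 samples) held every cell brighter than the cells of w1118 discs, which lack the reporter. The GFP-negative group (3 samples) held 100000 cells per sample from below that threshold, from about 200 discs per sample. Each sample gave total RNA for 1 Affymetrix array. GFP-positive cells are those with reporter fluorescence and are not a single cell type, and GFP-negative cells are all others of the disc. The labels do not say whether samples of a group were separate dissections, so the p-values below may cover technical spread only.

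The sort and the tissue were checked with marker genes. *E(spl)m4-BFM*, whose reporter was sorted on, had signals of 2127.6, 2340.7 and 2590.8 in GFP-positive cells, against 333.7, 326.9 and 48.0 in GFP-negative cells. Of 6 disc epithelium markers, *crb*, *vg* and *ap* were called Present on all arrays, while *shg*, *nub* and *fj* were Present on none. Summed signals of the 6 adult muscle precursor markers on the array, genes of the mesodermal cells beneath the notum, ranged from 1147.4 to 1242.3 over the GFP-positive arrays and from 3333.6 to 6117.7 over the GFP-negative arrays. Of these, *Him*, *htl* and *SPARC* were Present on GFP-negative arrays alone, and all 3 passed as lower in GFP-positive cells. Their log2 differences were -3.90, -3.19 and -3.90 (limma adjusted p = 0.000134, 0.000271 and 0.00143). No array called *twi* or *zfh1* Present. Over GFP-positive arrays *twi* averaged 51.3 and *zfh1* 70.7, against 557.8 and 312.0 over GFP-negative arrays. The sixth, *sns*, did not pass at the 1 of its 6 probe sets with Present calls, with 711.5, 718.2 and 855.6 in GFP-positive cells, against 573.8, 398.1 and 623.7 in GFP-negative cells (log2 0.53, limma adjusted p = 0.360). Of 7 hemocyte markers on the array 5 were Present on no array. The others were *crq*, Present on all 6 arrays with signals of 333.7 to 705.7, and *srp*, Present on 1 GFP-positive and 2 GFP-negative arrays. Neither passed (log2 -0.07 and -0.25, limma adjusted p = 0.949 and 0.881). The 3 tracheal markers gave 1 Present call in all. The 5 glial markers had summed signals of 1920.7 to 2468.4 over the GFP-positive arrays, against 1565.1 to 2239.3 over the GFP-negative arrays. Of them, *loco* passed at 1 of its 2 probe sets (log2 1.25, limma adjusted p = 0.0297, and up to 0.174 over the settings tried), *nrv2* (log2 -0.71, limma adjusted p = 0.190) and *repo* (log2 -0.09) did not pass, and *gcm* and *moody* were not tested. The part of the muscle precursor and glial markers in the values below was not tested. Fewer cells of a type and less RNA per cell cannot be told apart in such bulk samples. The arrays fell on 2 hybridization days, with replicate 1 of each group on day 1 and replicates 2 and 3 on day 2, and in 3 array lots.

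Most tetraspanin probe sets were not detected. The array software calls each probe set Present, Marginal or Absent from its paired perfect-match and mismatch probes. Of the 32 members, 7 were Present on at least 2 of the 3 GFP-positive arrays and 8 on at least 2 of the 3 GFP-negative arrays. Together these were 9 members, or 28.1%, against 35.4% of all 13966 probe sets other than controls. The remaining 23 were Present on no array. By array, 5, 7 and 7 members were Present in GFP-positive replicates 1, 2 and 3, against 9, 8 and 4 in GFP-negative replicates 1, 2 and 3. The ranges of these counts overlapped. An Absent call says that the signal was not above the mismatch background, and does not show that the gene was silent.

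**Figure D1:**
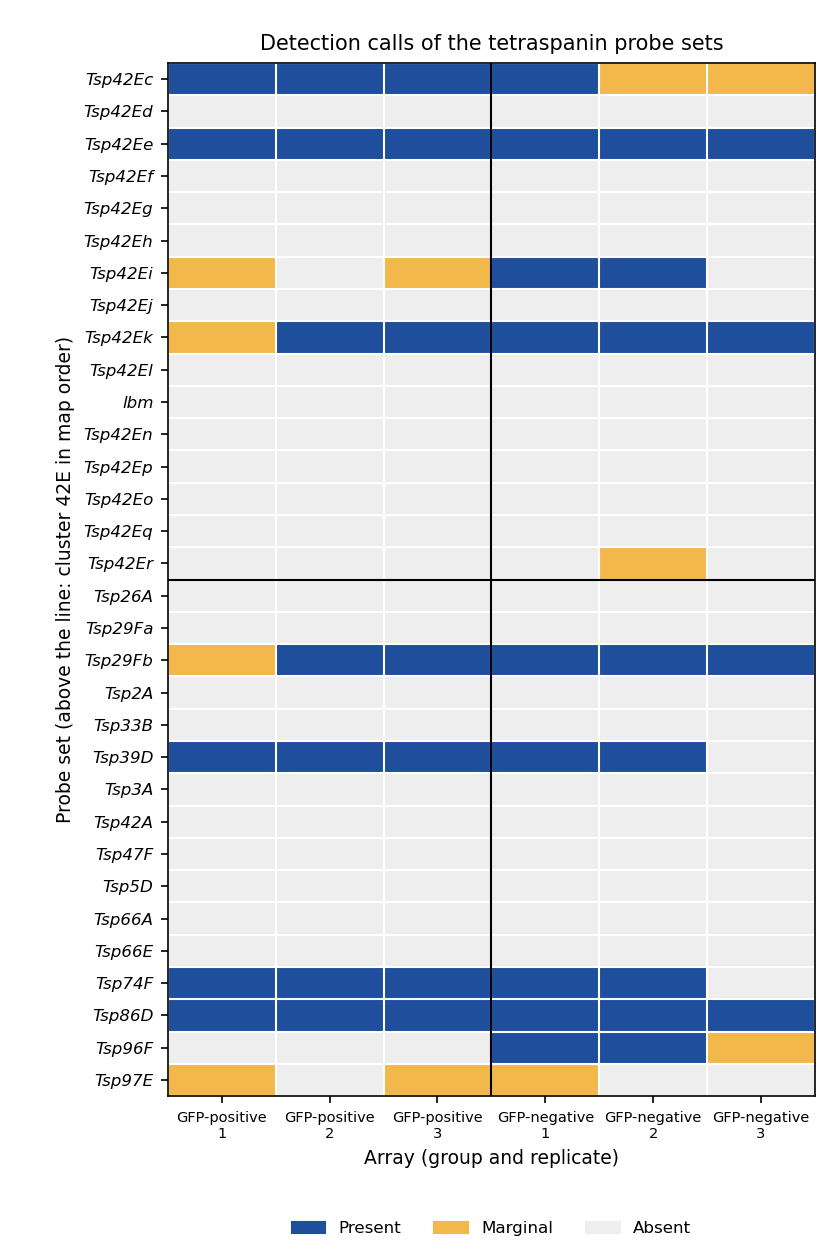
Detection call of each of the 32 tetraspanin probe sets (rows) on each of the 6 arrays (columns), with Present in blue, Marginal in orange and Absent in grey. Only *Tsp42Ee* and *Tsp86D* were Present on all 6 arrays, and 21 probe sets were Absent on all 6.

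With group as the only term, no tetraspanin passed the test across the array, and 1, *Tsp39D*, passed when replicate number was added as a block (adjusted p = 0.0395). Detected probe sets were tested with limma on log2(signal + 16) at an adjusted p of 0.05, which left 0 of the 9 tetraspanins higher, 0 lower and 9 not passing. Over all 4943 tested probe sets, 148 or 2.99% passed, with 1.25% higher and 1.74% lower in GFP-positive cells. At an unadjusted p under 0.05 there was 1 of the 9, *Tsp39D*, against 14% of all tested probe sets. With the replicate block, 5.2% of all tested probe sets passed, and 2.16% of all tested were called higher in GFP-positive cells, *Tsp39D* among them. Of the 9 differences, 5 were positive and 4 negative, and 8 were smaller than 1 on the log2 scale. Their median was 0.30, against -0.01 over all tested probe sets. Of the 9, *Tsp42Ec* entered through the GFP-positive arrays alone, and *Tsp42Ei* and *Tsp96F* through the GFP-negative arrays alone. Over all 32 members in the fit without the detection filter the median was -0.02, against 0.09 over all probe sets in that fit.

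**Figure D2:**
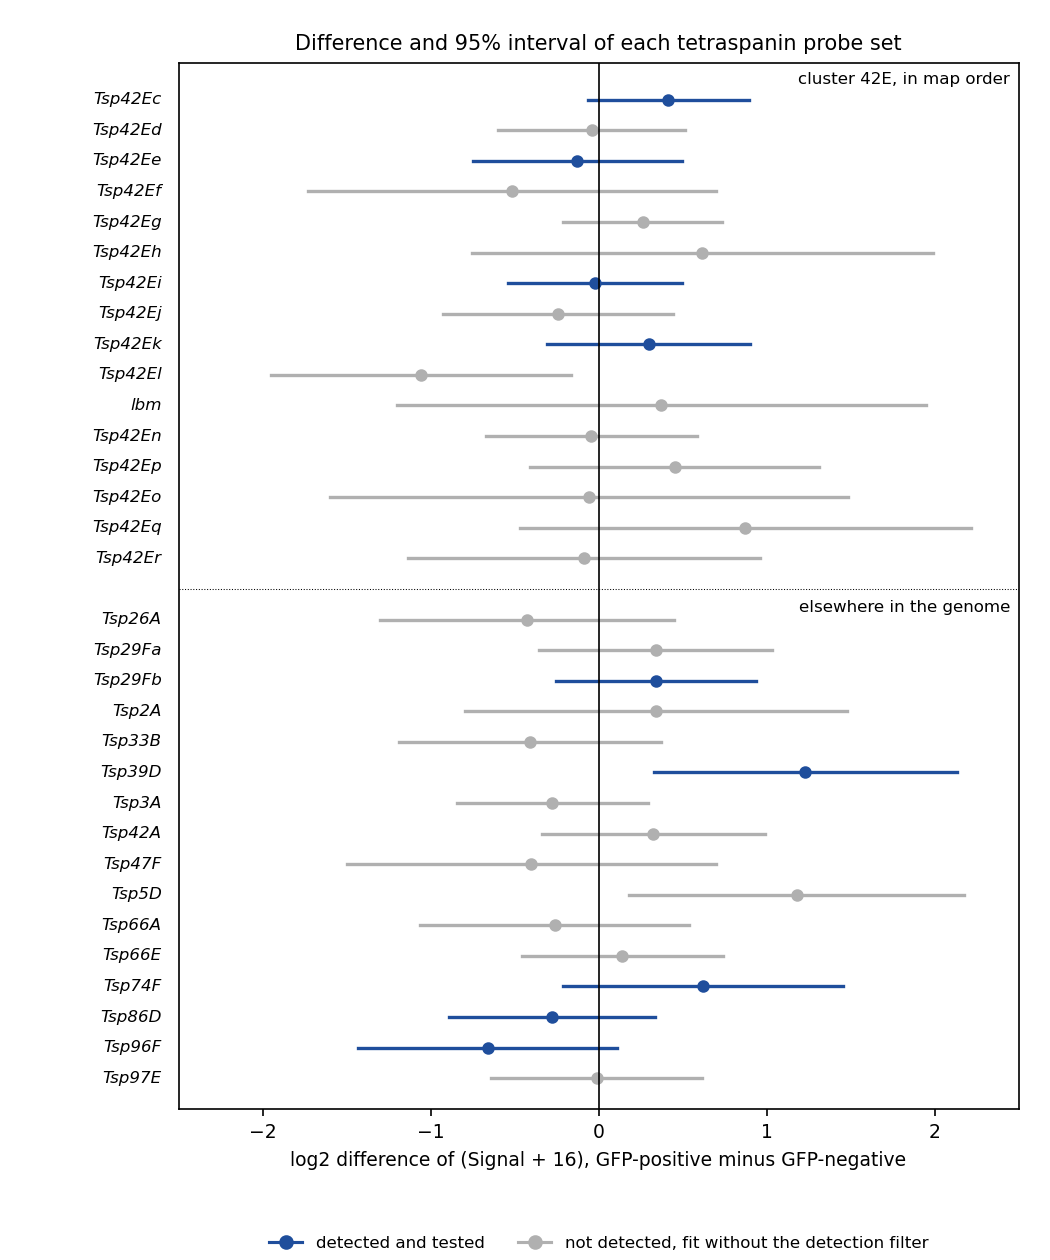
Log2 difference (GFP-positive minus GFP-negative, horizontal axis) with its 95% interval for each tetraspanin probe set, cluster members in map order above the dotted line and the others below it. Blue marks the 9 detected and tested members, and grey the 23 undetected ones, whose values come from a fit without the detection filter. The intervals of *Tsp39D*, *Tsp5D* and *Tsp42El* do not reach 0, but no adjusted p passed in these fits without a block.

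The 42E cluster is a tandem array of related genes. The RefSeq gene table (assembly Release 6 plus ISO1 MT) lists 18 genes there with a Tsp42E symbol or the name *lbm*, and the 16 with a probe set run from *Tsp42Ec* to *Tsp42Er*; *Tsp42Ea* and *Tsp42Eb* were not analysed here. The spans of *Tsp42Ej* and *Tsp42Ek* overlap in that table, as do those of *Tsp42Ep* and *Tsp42Eo*. Probe sequences were not used, so signal shared between such neighbours or between close copies was not examined. Detection along the cluster was uneven. *Tsp42Ec*, *Tsp42Ee*, *Tsp42Ei* and *Tsp42Ek* were detected, and undetected genes lay between each of them and the next. The neighbours *Tsp42El* to *Tsp42Er* at the other end, *lbm* included, formed a run without a Present call. The median difference of the 4 detected cluster members was 0.14, and over all 16 in the fit without the detection filter it was -0.03, against 0.09 over all probe sets in that fit.

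*Tsp42Ee* was the only cluster member Present on all 6 arrays. Its signals were 3015.8, 4787.2 and 6631.6 in GFP-positive cells (4812 ± 1808, SD, n = 3), against 4708.6, 5357.4 and 4942.6 in GFP-negative cells (5003 ± 329, SD, n = 3). GFP-positive replicate 1 lay below the narrow GFP-negative range, replicate 2 within it and replicate 3 above it. The log2 difference was -0.13 (SE 0.280, limma adjusted p = 0.885), with an interval from -0.75 to 0.50, which leaves room for a change of up to 1.68-fold lower or 1.41-fold higher. It was -0.64 in the day 1 pair and 0.13 in the day 2 arrays, so its sign was not the same on the 2 days.

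*Tsp42Ec* was the cluster member detected more often in GFP-positive cells, Present on 3 of 3 GFP-positive and 1 of 3 GFP-negative arrays, the other 2 being Marginal. Its signals were 737.3, 821.2 and 874.3 in GFP-positive cells, against 523.7, 588.6 and 709.5 in GFP-negative cells. All GFP-positive values lay above all GFP-negative ones. The log2 difference of 0.42 (SE 0.215, interval -0.06 to 0.89) did not pass (limma adjusted p = 0.420), and it was 0.48 on day 1 and 0.38 on day 2. Because it entered the test through the GFP-positive arrays alone, its direction was favoured by the filter.

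*Tsp42Ei* and *Tsp42Ek* overlapped between the groups. *Tsp42Ei* had 646.3, 521.7 and 502.2 in GFP-positive cells, against 583.5, 452.8 and 667.9 in GFP-negative cells, with Present calls on 0 of 3 and 2 of 3 arrays. Its log2 difference was -0.02 (interval -0.54 to 0.50, limma adjusted p = 0.984), so the difference in calls was not matched by one in signal. *Tsp42Ek* had 293.6, 464.5 and 323.5 in GFP-positive cells, against 267.9, 232.5 and 368.4 in GFP-negative cells. Its log2 difference was 0.30 (interval -0.31 to 0.90, limma adjusted p = 0.683).

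**Figure D3:**
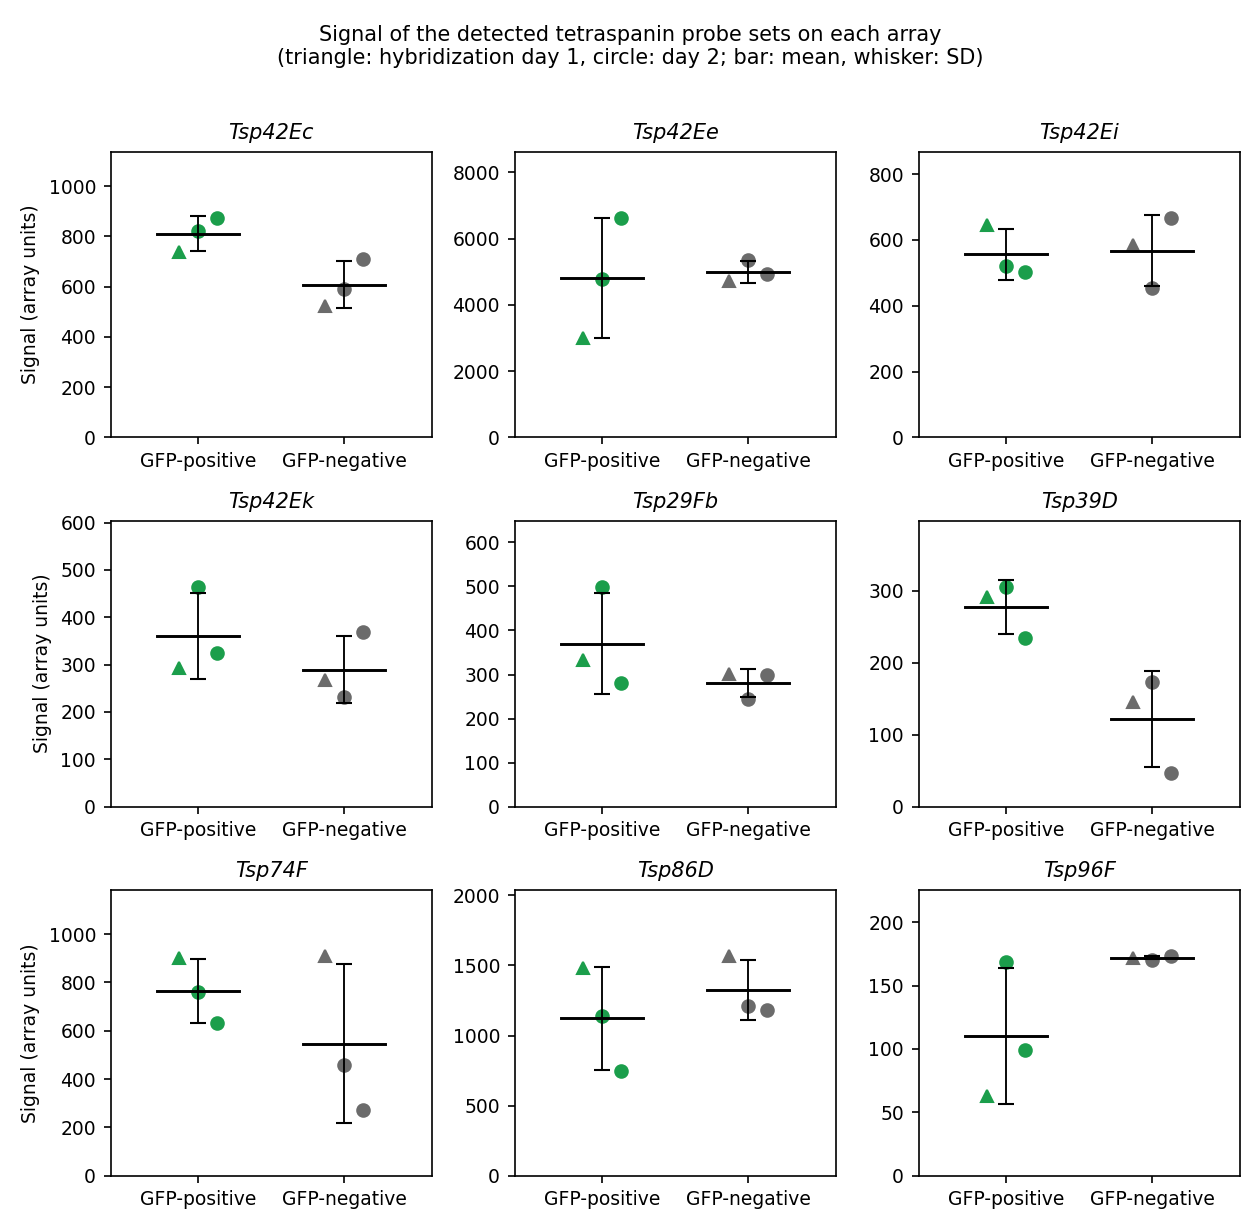
Signal in array units (vertical axes, each from 0 and on its own scale) of the 9 detected tetraspanins, with 1 point per array, GFP-positive left and GFP-negative right. Triangles are day 1 and circles day 2 arrays, bars are means and whiskers SD (n = 3). The groups do not overlap for *Tsp42Ec*, *Tsp39D* and *Tsp96F*, 33.3% of the 9, against 20.8% of all tested probe sets. *Tsp42Ec* and *Tsp96F* entered the test only through the group where they were higher, which favours such separation.

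The 12 cluster members without a Present call had single-array signals between 2.2 and 529.7. In the fit without the detection filter their log2 differences ran from -1.06 to 0.87, with 5 positive and 7 negative, and the lowest limma adjusted p was 0.401. *lbm* (late bloomer), which acts in motor axons as they form synapses on muscle, had 129.2, 112.5 and 30.9 in GFP-positive cells, against 10.5, 79.8 and 142.3 in GFP-negative cells. *Tsp42Ej* (sunglasses), a lysosomal tetraspanin known from rhodopsin degradation in photoreceptors, had 168.0, 187.2 and 147.5 in GFP-positive cells, against 237.4, 184.3 and 182.1 in GFP-negative cells. Neither separated the groups, and both were Absent throughout. *Tsp42El* was the 1 undetected cluster gene whose groups did not overlap, with 97.5, 38.5 and 78.1 in GFP-positive cells, against 150.4, 151.7 and 171.6 in GFP-negative cells. Its log2 difference was -1.06 (limma adjusted p = 0.401 without the filter), but with Absent calls on all 6 arrays no fold is given.

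Genes next to and within the cluster without such a symbol gave a local comparison. Of 7 with a probe set, *vimar*, *CG17002*, *CG30159* and *Pgant3* were tested. *Pgant3*, an O-glycosylation enzyme that lies between *Tsp42Eo* and *Tsp42Eq*, was Present on all 6 arrays, and averaged 657.9 ± 140 over GFP-positive arrays, against 761.0 ± 154 over GFP-negative arrays (SD, n = 3 each). *CG30159*, which overlaps *Tsp42Ea*, was also Present on all arrays. Differences of the 4 lay between -0.20 and 0.21 on the log2 scale, and 0 passed. At an unadjusted p under 0.05 there were also 0, and over all tested probe sets the shares were 2.99% and 14%. *Pgant3* was thus detected between tetraspanins that were not. The other 3 neighbours, *CG12836*, *CG12831* and *esn*, lie beyond *Tsp42Er* and were Absent on all 6 arrays, as were most tetraspanins at that end.

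Among the genes elsewhere, the Kuzbanian-binding subgroup was represented by *Tsp86D*. This gene was Present on all 6 arrays, with 1479.8, 1141.9 and 745.3 in GFP-positive cells (1122 ± 368, SD, n = 3), against 1568.6, 1213.5 and 1185.5 in GFP-negative cells (1323 ± 214, SD, n = 3). The ranges overlapped, and replicate 1, the day 1 array, was the highest of either group. The log2 difference was -0.28 (SE 0.275, limma adjusted p = 0.715), with an interval from -0.89 to 0.34. *Tsp3A* had 307.5, 397.7 and 316.7 in GFP-positive cells, against 488.0, 426.4 and 337.9 in GFP-negative cells. *Tsp26A* had 214.7, 284.1 and 105.8 in GFP-positive cells, against 301.0, 197.4 and 286.8 in GFP-negative cells. These 2 members of the subgroup were Absent on all 6 arrays, and their values overlapped between the groups.

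*Tsp39D* had the highest positive difference of the 9 tested members. Its signals were 291.9, 305.6 and 234.1 in GFP-positive cells (277.2 ± 38.0, SD, n = 3), against 146.0, 173.1 and 46.4 in GFP-negative cells (121.8 ± 66.7, SD, n = 3). Every GFP-positive array lay above every GFP-negative array, and GFP-negative replicate 3, the lowest, was also the 1 array that called it Absent. The log2 difference was 1.23 (SE 0.405, interval 0.33 to 2.13), with a limma adjusted p = 0.175. With replicate number as a block the adjusted p was 0.0395, whereas it was 0.113 with hybridization day as a block and 0.112 with lot as a block. The difference was 0.93 in the day 1 pair and 1.38 on day 2, where the limma adjusted p was 0.292. Leaving out GFP-negative replicate 3 lowered it to 0.74 (limma adjusted p = 0.298). Its adjusted p ranged from 0.0395 to 0.401 over the settings tried.

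*Tsp74F* overlapped between the groups and did not pass. It had 900.9, 760.0 and 632.7 in GFP-positive cells, against 910.0, 456.4 and 272.3 in GFP-negative cells, where replicate 3 called it Absent. The day 1 pair gave a log2 difference of -0.01, while the day 2 arrays gave 0.94 with limma adjusted p = 0.234. Over all arrays the log2 difference was 0.62 (SE 0.375, interval -0.21 to 1.46, limma adjusted p = 0.507), with 1.07 without GFP-negative replicate 1 and 0.22 without GFP-negative replicate 3.

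*Tsp96F* was detected in GFP-negative cells alone. It had 63.1, 168.6 and 99.3 in GFP-positive cells, all called Absent, against 172.1, 170.6 and 173.5 in GFP-negative cells, called Present, Present and Marginal. The groups did not overlap, though GFP-positive replicate 2 came within a few units of the GFP-negative arrays. The log2 difference of -0.66 did not pass (SE 0.345, interval -1.43 to 0.11, limma adjusted p = 0.421). The difference was -1.25 in the day 1 pair and -0.37 in the day 2 arrays, and -0.37 without GFP-positive replicate 1. It entered the test through the GFP-negative arrays alone, which favours a lower value in GFP-positive cells. The summed muscle precursor markers were also lower in GFP-positive cells, though not *sns* among them, and their part in this value was not tested.

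*Tsp29Fb*, the last of the tested genes, had 331.9, 499.4 and 279.8 in GFP-positive cells, against 301.3, 245.2 and 298.2 in GFP-negative cells. Its log2 difference was 0.34 (interval -0.25 to 0.94, limma adjusted p = 0.636). *Tsp29Fa*, its neighbour at the same map position, had 451.3, 656.6 and 447.7 in GFP-positive cells, against 267.4, 425.1 and 557.5 in GFP-negative cells, and was Absent on all arrays. The pair thus differed in detection, and neither separated the groups.

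The other 11 genes outside the cluster had no Present call, and single-array signals between 6.9 and 699.4. Their log2 differences without the detection filter ran from -0.43 to 1.18, with 5 positive and 6 negative. The groups did not overlap for 3 of them. *Tsp5D* had 157.5, 193.0 and 360.5 in GFP-positive cells, against 58.5, 79.6 and 148.8 in GFP-negative cells, with a log2 difference of 1.18 (limma adjusted p = 0.401 without the filter). *Tsp42A*, which maps near the cluster but not within it, had 261.1, 207.8 and 198.9 in GFP-positive cells, against 192.9, 170.1 and 157.7 in GFP-negative cells. *Tsp33B* had 65.2, 65.0 and 71.9 in GFP-positive cells, against 89.5, 92.9 and 101.2 in GFP-negative cells. *Tsp2A*, a component of the smooth septate junctions of gut epithelia, overlapped between the groups with 222.6, 187.1 and 127.2 in GFP-positive cells, against 176.9, 53.6 and 237.6 in GFP-negative cells. *Ssk*, *mesh* and *hoka*, its partners in those junctions, were likewise Present on no array. *Tsp97E* came nearest to detection among the 11, with Marginal calls on 3 arrays and signals of 528.7, 472.8 and 496.7 in GFP-positive cells, against 528.4, 343.3 and 699.4 in GFP-negative cells.

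Over all 32 members the groups did not overlap in 7, or 21.9%, against 16.6% of all probe sets other than controls. The share was 12.5% at 42E and 31.2% elsewhere, where 5 of 16 members make it up. Of the 7, *Tsp42Ec*, *Tsp39D*, *Tsp42A* and *Tsp5D* were higher in GFP-positive cells, and *Tsp42El*, *Tsp33B* and *Tsp96F* were lower. In the fit without the detection filter, 0 of the 32 passed, where 0.695% of all probe sets did, and 3 had an unadjusted p under 0.05 (9.38%, against 10.1% of all).

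**Figure D4:**
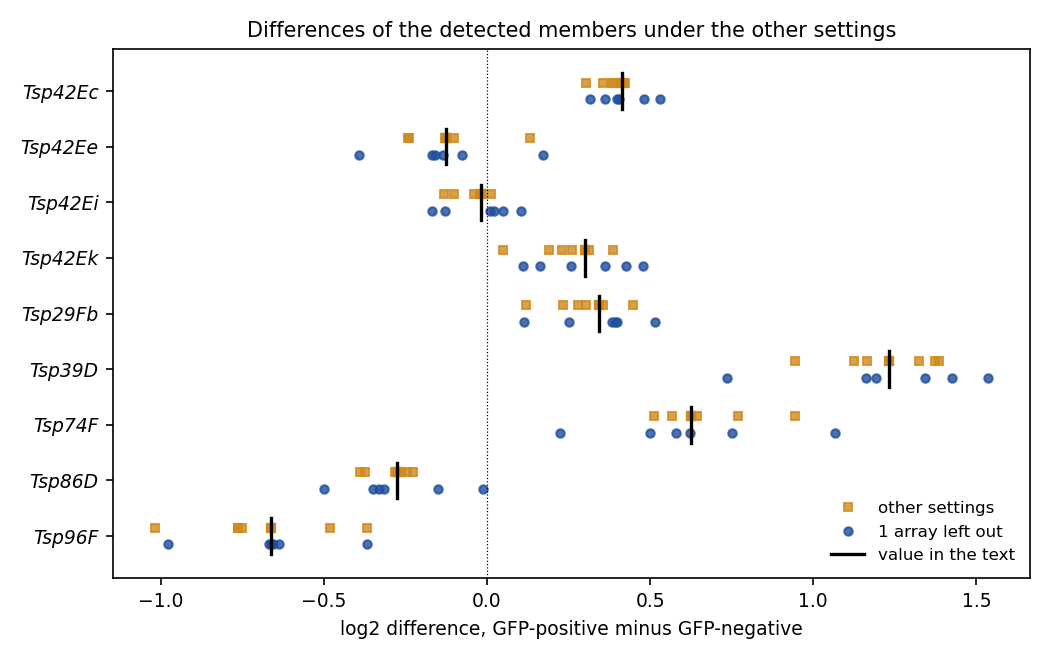
Log2 difference (GFP-positive minus GFP-negative, horizontal axis) of the 9 detected tetraspanins under each setting tried, with squares for other fits and scalings, circles for fits with 1 array left out and a black bar for the value in the text. The values of *Tsp42Ee* and *Tsp42Ei* lie on either side of 0, and those of the other 7 stay on 1 side.

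Genes with which tetraspanins are known to act were given from lists chosen by function. Of 5 genes of Notch cleavage and its ligands on the array, 3 were tested and 0 passed in limma, with 1 at an unadjusted p under 0.05 (*Delta*). Over all tested probe sets these shares were 2.99% and 14%. *kuz*, the gene of Kuzbanian itself, was Present on all arrays with 543.7, 1216.5 and 495.5 in GFP-positive cells, against 480.1, 891.9 and 1205.6 in GFP-negative cells. Its log2 difference was -0.21 (interval -1.10 to 0.67, limma adjusted p = 0.861). *Psn*, the catalytic subunit of gamma-secretase, which makes the final cut of Notch, had a log2 difference of -0.004 (interval -0.49 to 0.48, limma adjusted p = 0.997). *Delta*, a Notch ligand, had 6239.4, 7977.2 and 5372.2 in GFP-positive cells, against 4665.2, 3856.7 and 3817.0 in GFP-negative cells, and its log2 difference of 0.65 did not pass (limma adjusted p = 0.192). The related metalloprotease genes *Kul* and *Tace* were Present on no array.

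Of 7 integrin genes, 4 were tested and 0 passed in limma, with 1 at an unadjusted p under 0.05 (*if*) and a median log2 difference of -0.62. *mys*, the main beta subunit, had 1748.7, 1909.2 and 911.1 in GFP-positive cells, against 6116.4, 1748.5 and 1318.4 in GFP-negative cells, where replicate 1 stood apart. Its log2 difference was -0.73, and ran from -1.17 to -0.07 with 1 array left out. *if*, an alpha subunit known from muscle and the wing epithelium, had 114.8, 118.2 and 109.3 in GFP-positive cells, against 142.8, 264.8 and 218.6 in GFP-negative cells, with limma adjusted p = 0.285. *mew* and *scb*, further alpha subunits, overlapped between the groups. Both entered the test through the GFP-negative arrays alone, which favours lower values in GFP-positive cells. Their log2 differences were -0.37 and -0.50, against -0.73 for *mys* and -0.75 for *if*, which were detected in both groups. The part of the filter in the median was not tested. Of 17 genes of endosomal sorting and lysosomes on the array, the compartments that many tetraspanins pass through, 14 were tested and 0 passed in limma, with 0 also at an unadjusted p under 0.05. Their log2 differences lay between -0.43 and 0.34 with a median of 0.02. For this list and the integrins alike, the shares over all tested probe sets were 2.99% passing and 14% at an unadjusted p under 0.05. *TM4SF*, a tetraspanin gene without a Tsp symbol, was Absent on all arrays, with 91.0, 232.3 and 104.0 in GFP-positive cells, against 151.8, 112.0 and 199.3 in GFP-negative cells.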

How the data were processed

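Total RNA of 3 GFP-positive and 3 GFP-negative samples was hybridised to Affymetrix Drosophila arrays, 1 per sample. Per the file headers, the deposited intensity (Signal) was computed by the Affymetrix statistical algorithm and scaled on each array over all probe sets to a target set by the authors. The p-values for detection that the authors deposited, and the calls made from them, come from that algorithm too, and only the calls were used. The deposited series table held the same intensity values for all 14010 probe sets. No genome build is named in these files, so no coordinates are printed. The number of arrays limits the precision.

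Here 44 control probe sets were left out. Probe sets Present on at least 2 of 3 arrays of a group were tested as log2(signal + 16) by the limma package (version 3.58.1, R 4.3.3; lmFit and trended eBayes, two-sided, with no term beside group, and Benjamini-Hochberg adjustment over all 4943 probe sets, checked on simulated data). Differences on this scale understate changes of dim genes. The check on simulated data missed many of the changes set in it, so a gene that did not pass may still differ. Symbols came from the platform annotation, updated through RefSeq. The members and lists were chosen with earlier results of these data known. All members are accounted for, those detected with all 6 signals. Of the function lists, the genes of Notch cleavage and any that passed were to be named, and other names were chosen after their values were seen. Symbols that matched an unrelated gene were left out. Deviations of same-numbered samples of the groups had correlations of 0.40, 0.102 and 0.122 over tested probe sets. Each was above the minimum of 0.1 set for pairing, but the first pair, replicate 1, was also alone on day 1. Within day 2, GFP-positive 3 with GFP-negative 2 gave 0.221, and GFP-positive 2 with GFP-negative 3 gave 0.0983. The correlations thus do not show that the numbers mark pairs beyond the shared day. The replicate block was an alternative to the fit with group alone. Other alternatives were day and lot as blocks, day 2 alone, other offsets, filters and scalings, no trend, and leaving out each array.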

Additional observations from a re-analysis of the deposited data

How the results depend on the processing

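Across 17 settings the 9 tested tetraspanins gave 146 differences, of which 138 kept their sign and their side of the threshold. The replicate block brought *Tsp39D* past it (limma, log2 1.23, adjusted p = 0.0395), giving 1 member elsewhere called higher, and changed no other member's call. The sign turned for *Tsp42Ee* in the day 2 arrays (0.13), and leaving out 1 array gave *Tsp42Ee* -0.39 to 0.17 and *Tsp42Ei* -0.17 to 0.10. *Tsp42Ei* also turned with lot as a block (0.012). The cause was not tested. The median at 42E was -0.030 for all members unfiltered, -0.13 for the 1 member Present on every array, and 0.043 to 0.30 with 1 array left out. Elsewhere it was 0.34 over the tested members and 0.065 for all members unfiltered. It was -0.28 there for the 1 member Present on every array and 0.11 to 0.51 with 1 array left out. With Present calls required on all 3 arrays, 5 members were detected on the GFP-positive side and 4 on the GFP-negative side, against 7 and 8 when 2 arrays sufficed.

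Across the array, 107 were higher and 150 lower with the replicate block, and 137 lower with day as a block. The 6-array filter gave 21 and 29. The day 2 arrays alone gave 41 and 35 and no filter 53 and 44, both with more higher than lower. With 1 array left out, 36 to 69 were higher and 33 to 84 lower, the lowest without GFP-negative replicate 2. More were higher than lower without that array (36 and 33) and without GFP-positive replicate 1 (41 and 37), and fewer when any other array was left out.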
